A study of Mus musculus with 6 samples.

Results

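The genes described here are the VEGF ligands and receptors in RNA sequencing of mouse glomerular endothelial cells. The 9 members were chosen by name: the ligands Vegfa, Vegfb, Vegfc and Pgf, the receptor tyrosine kinases Flt1, Kdr and Flt4 (VEGF receptors 1, 2 and 3 in order), and the co-receptors Nrp1 and Nrp2 (the neuropilins). Of these, 8 had a row among the 12911 genes listed and all 8 passed the filter on low counts, while Pgf is not analysed here. Glomeruli were isolated with magnetic beads and digested, and cells were sorted by the fluorescent protein EYFP. Both groups carried the eNOS-null genotype, which removes endothelial nitric oxide synthase. The control group (3 libraries) received no treatment and the STZ group (3 libraries) received STZ, which is commonly short for streptozotocin, a toxin of the insulin-producing beta cell used to induce diabetes in mice. Each library held pooled RNA of 4 mice, so the errors below are spreads between pools and not between single mice. The labels do not name the promoter that drove EYFP, so whether the sorting gate reads a gene of this family cannot be told from them. The sources used here give no age, sex, strain background or time after STZ.

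VEGF-A, made in the glomerulus mainly by podocytes, acts on the neighbouring fenestrated endothelium through KDR, its main signalling receptor. FLT1 binds VEGF-A, VEGF-B and PlGF tightly with weaker kinase activity and also exists as a soluble decoy, whereas FLT4 is the receptor of VEGF-C and VEGF-D and is best known from lymphatic vessels. Neuropilins bind both VEGF isoforms and class 3 semaphorins and present them to receptor kinases and plexins.

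In the STZ libraries Kdr and Flt4 were higher and Vegfc was lower, and the other 5 measured members did not pass the test. Kdr rose 1.52-fold, Flt4 rose 1.48-fold and Vegfc fell to 0.397 of its control level. Flt1 and Nrp1 were 1.19-fold and 1.16-fold higher without passing the adjusted test, and Vegfa, Vegfb and Nrp2 had overlapping libraries. The 3 called members were 37.5% of the 8 tested, against 9.78% of all 12786 tested genes (edgeR, adjusted p under 0.05). By direction, 5.47% of all genes were called higher and 4.32% lower. Libraries of the groups did not overlap in 5 of the 8 members, against 29.1% of all genes. The median log2 fold change of the members was 0.09, and that of all genes was -0.01.

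Total counts were 4387339 to 8751732.5 in the control libraries and 10734376 to 12662371.5 in the STZ libraries. Depth therefore differed between the groups without overlap. Nos3, the gene named by the genotype, still had 4152 to 7711 counts in control and 6339 to 8657 in STZ libraries. These counts do not check the genotype, because the labels do not say which part of the gene is missing. A pair of sex-linked genes, chosen after their values were seen, separated the groups as well: Xist averaged 709 ± 32.4 CPM (counts relative to the normalized library total) in control and 0.687 ± 0.261 CPM in STZ libraries, and Ddx3y averaged 3.07 CPM in control and 135 CPM in STZ libraries. Xist and the Y-linked Ddx3y thus differed as between female (control) and male (STZ) pools, although the labels give no sex. Every difference between the groups, above and below, is therefore also one between pools that differ in these sex-linked genes. The part of STZ and of that difference cannot be told apart. The endothelial label was met by its markers: all 12 glomerular endothelial markers had a row, and they summed to 14722.9 to 16104.8 CPM in control and 24561.6 to 26523 CPM in STZ libraries. Podocyte markers were present too, at 5359.5 to 8491.45 CPM in control and 5879.32 to 7223.74 CPM in STZ libraries. Of the 5 lymphatic markers listed Pdpn alone had a row, at 13.3 to 33.1 CPM.

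The stretch before the start of Kdr, Flt1 and Vegfc is shown because these are a receptor that rose, its neighbour in the family that did not pass the test and the ligand that fell. Sequences are from RefSeq (GRCm38.p6), in which all 8 members had an entry, and each is the part of the 250 bases before the start that lies in no annotated exon, 5′ to 3′ on the gene's strand. The start is that of RefSeq, which for Kdr lies 27 bases and for Flt1 23 bases upstream of the start in the deposited files and for Vegfc is the same. Capitals mark GGAA or its reverse complement TTCC, the core that ETS transcription factors bind.
Kdr, chr5:75978459-75978705, minus strand: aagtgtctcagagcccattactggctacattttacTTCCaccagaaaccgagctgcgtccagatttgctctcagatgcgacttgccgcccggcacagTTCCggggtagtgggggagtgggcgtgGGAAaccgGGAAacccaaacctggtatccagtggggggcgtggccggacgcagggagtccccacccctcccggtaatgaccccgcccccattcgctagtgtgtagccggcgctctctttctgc
Flt1, chr5:147726012-147726261, minus strand: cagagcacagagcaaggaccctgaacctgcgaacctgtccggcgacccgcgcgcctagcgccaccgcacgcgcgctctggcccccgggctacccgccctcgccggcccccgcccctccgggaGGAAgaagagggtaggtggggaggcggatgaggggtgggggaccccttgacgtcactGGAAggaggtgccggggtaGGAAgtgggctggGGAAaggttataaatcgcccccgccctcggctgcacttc
Vegfc, chr8:54077282-54077531, plus strand: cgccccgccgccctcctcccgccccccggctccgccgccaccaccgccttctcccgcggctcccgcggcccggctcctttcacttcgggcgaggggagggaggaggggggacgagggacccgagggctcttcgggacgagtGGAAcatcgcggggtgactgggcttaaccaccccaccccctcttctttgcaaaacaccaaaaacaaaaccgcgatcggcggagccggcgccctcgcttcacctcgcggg
The ETS core occurred 4 times in Kdr, 4 times in Flt1 and 1 time in Vegfc, and 93.4% of 32851 promoters of that length held at least 1, with a median of 3. The hypoxia-factor core, ACGTG or GCGTG on either strand, occurred 2 times in Kdr, 1 time in Flt1 and 0 times in Vegfc, and 38.6% of promoters held it. The GC box GGGCGG on either strand occurred 2 times in Kdr, 3 times in Flt1 and 2 times in Vegfc, and 32.7% of promoters held it. The 250 bases before Flt4, which lie in an annotated exon and are not printed, held 2 ETS cores, 0 hypoxia-factor cores and 3 GC boxes. These matches describe letters and are not binding sites. G or C made up 71.6% of the 250 bases before Vegfc, 70.4% before Flt1 and 61.6% before Kdr, each above the median of 52.4% over all promoters.

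**Figure D1:**
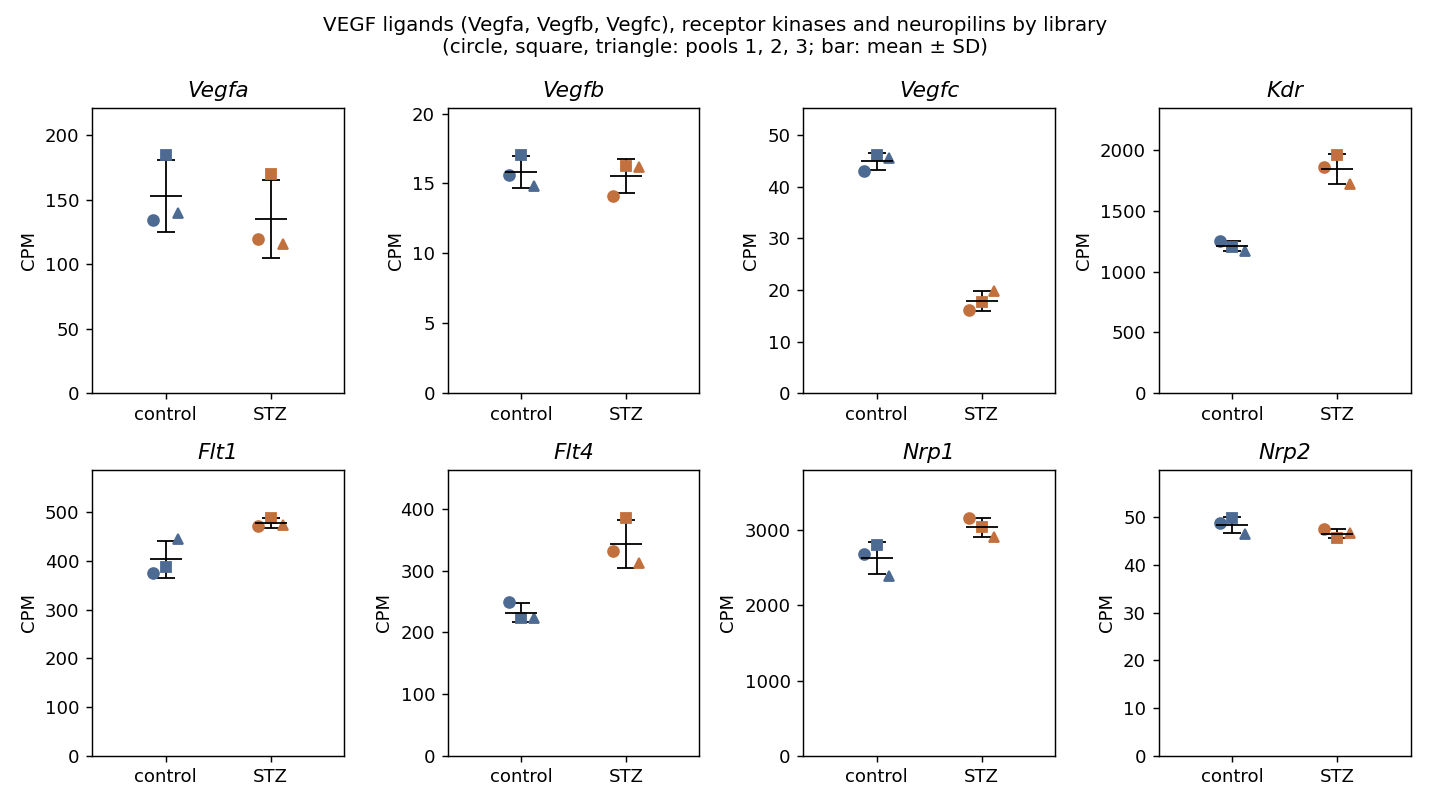
CPM (y axis, from 0) of each measured VEGF ligand, receptor kinase and neuropilin in the 3 control (blue) and 3 STZ (orange) libraries, with marker shapes for pools 1, 2 and 3 and bars for the mean ± SD. All STZ points lie above all control points for Kdr, Flt1, Flt4 and Nrp1 and below them for Vegfc, while those of Vegfa, Vegfb and Nrp2 overlap.

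Vegfc, the ligand of FLT4 (NM_009506, chr8:54077532-54186454, plus strand, mm10), was the member that differed most. Its level was 43.1, 46.1 and 45.5 CPM in control libraries 1, 2 and 3 and 16.0, 17.6 and 19.8 CPM in STZ libraries 1, 2 and 3. Every STZ library was below every control library, although the STZ libraries were deeper: the deposited counts behind these values were 206 to 392 in control and 166 to 245 in STZ. The mean fell from 44.9 ± 1.60 to 17.8 ± 1.90 CPM (SD, n = 3). The log2 fold change was -1.33 ± 0.12 (SE, 95% interval -1.59 to -1.06), with an adjusted p of 1.88e-05 in edgeR's quasi-likelihood test. By absolute log2 fold change Vegfc ranked 97 among the 12786 tested genes. In bulk libraries a lower value can come from fewer cells of a type or from less RNA per cell, and these cannot be told apart.

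Mesangial and mural markers were lower in the same libraries. The 11 listed markers with a row summed to 1334.15, 1313.81 and 1228.75 CPM in control and 743.093, 477.858 and 869.76 CPM in STZ libraries. Of these markers 4 were called lower and 0 higher (Rgs5, Cspg4, Notch3 and Myh11), and their median log2 fold change was -0.85. Pdgfrb, the mural PDGF receptor, had a log2 fold change of -1.36 with an adjusted p of 0.0538 (edgeR). It passed the threshold in 8 of 17 refits and not in the other 9. Among those 8 were DESeq2 (adjusted p 0.000682), limma-voom (0.00286) and the edgeR fit without STZ library 2 (3.33e-05). Set against the mean log2 CPM of the mural list, an alternative added after the values were seen, Vegfc differed by -0.39 and its libraries overlapped between the groups. The overlap came from STZ library 2 (-1.17), which had the lowest mural sum. STZ libraries 1 and 3 (-1.87 and -1.76) lay below all control libraries (-1.33 to -1.09) on that scale. Against the podocyte list Vegfc differed by -0.96 and against the glomerular endothelial list by -1.71, in both cases with no overlap. The part of mural cells in the Vegfc difference was not tested further. Patterns over the 6 libraries were compared by root mean square difference of centred log2 CPM among 10146 genes. Nearest to Vegfc were Atp2b2 (0.142), Cttnbp2 (0.147) and Rgs5 (0.156), and Rgs5 is itself on the mural list. This measure, here and for Kdr and Flt4 below, includes the difference between the groups. Genes near by it therefore have similar log2 fold changes (-1.20, -1.13 and -1.13 for these 3) and need not vary together within a group.

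Vegfa (NM_001025250, chr17:46016993-46032377, minus strand), the main ligand of KDR and FLT1, was at 134, 184 and 139 CPM in control and 119, 169.7 and 116 CPM in STZ libraries. Pool 2 was highest in both groups, and the groups overlapped. The log2 fold change was -0.18 ± 0.18 (95% interval -0.59 to 0.24), with an adjusted p of 0.613 in edgeR. The estimate rested on the pools numbered 2: it was -0.01 without control library 2 and -0.38 without STZ library 2, with adjusted p of 0.972 and 0.103 in edgeR. It was -0.10 without STZ library 1 and -0.08 without STZ library 3. The interval was wide and leaves room for a fall as well as for a small rise. The sum of the podocyte markers overlapped as well, with 0 of 12 called, 1 without overlap (Clic5, higher in STZ libraries) and a median log2 fold change of -0.52, and Podxl was the most abundant of them. That sum was highest in control library 2, like Vegfa, but lowest among the STZ libraries in library 2, unlike Vegfa. Relative to the podocyte list Vegfa differed by 0.18 with overlapping libraries, and relative to the mural list by 0.75, also with overlap. Relative to the glomerular endothelial list it differed by -0.57 with no overlap, so its sign depends on which cells it is set against. The deposited value is a single number for 9 listed transcripts, so VEGF-A isoforms cannot be separated.

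Vegfb (NM_011697, chr19:6982472-6987651, minus strand), a ligand of FLT1, was low throughout. It was at 15.6, 17.0 and 14.8 CPM in control and 14.1, 16.3 and 16.2 CPM in STZ libraries, which overlapped. Its log2 fold change was -0.03 ± 0.15 (95% interval -0.35 to 0.29, adjusted p 0.935 in edgeR). Vegfd is listed under its older symbol Figf and is no member, but as the other FLT4 ligand its values were looked at after the rest. Figf averaged 20.7 ± 0.819 CPM in control and 20.4 ± 7.25 CPM in STZ libraries (log2 fold change -0.02 ± 0.25, adjusted p 0.977 in edgeR), with STZ library 2 at 12.3 CPM and STZ library 3 at 26.2 CPM. Of the FLT4 ligands in these data, Vegfc therefore passed the test and Figf did not, and the difference between them was not tested.

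**Figure D2:**
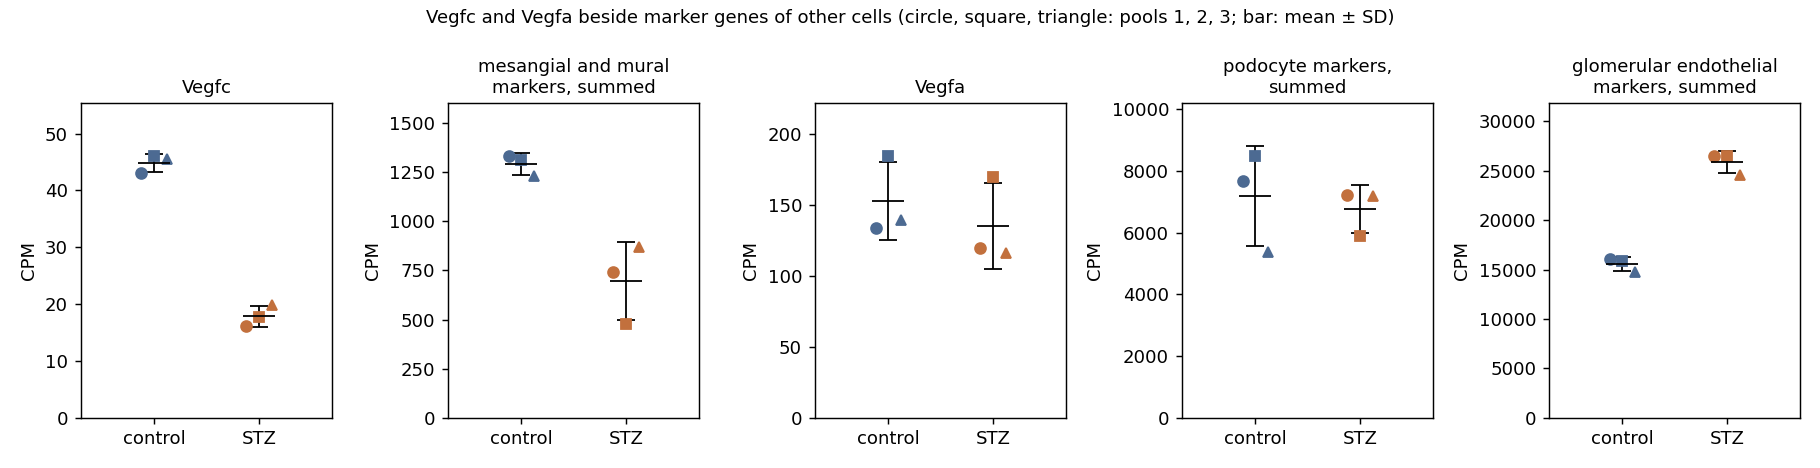
CPM (y axes, from 0) of Vegfc, the summed mesangial and mural markers, Vegfa, the summed podocyte markers and the summed glomerular endothelial markers by library, with bars for the mean ± SD of 3 libraries. Vegfc and the mural sum are lower in all STZ libraries, Vegfa and the podocyte sum overlap between the groups, and the endothelial sum is higher in all STZ libraries.

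Among the receptor kinases, Kdr (NM_010612, chr5:75933270-75978428, minus strand) was at 1253, 1203 and 1168 CPM in control and 1856, 1956 and 1715 CPM in STZ libraries. The lowest STZ library lay well above the highest control library. The mean was 1208 ± 42.9 CPM in control and 1843 ± 121 CPM in STZ libraries (SD, n = 3). The log2 fold change was 0.61 ± 0.10 (95% interval 0.40 to 0.82), with an adjusted p of 0.00137 in edgeR. The most similar patterns were those of Hyal2 (root mean square difference 0.0351), Cep85 (0.0371) and Fermt3 (0.0394).

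Flt4 (NM_008029, chr11:49609679-49652739, plus strand) was at 249.8, 224 and 223 CPM in control and 331, 386 and 313 CPM in STZ libraries, again with no overlap. Its log2 fold change was 0.56 ± 0.10 (95% interval 0.34 to 0.79, adjusted p 0.00325 in edgeR). Hyal2 (0.0384), Fam102a (0.0421) and Cyth1 (0.0483) were nearest to it. Of the lymphatic markers Pdpn was at 26.8 ± 9.87 CPM in control and 17.0 ± 3.24 CPM in STZ libraries and was not called. Flt4 and its ligand Vegfc thus moved in opposite directions in the same libraries.

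Flt1 (NM_010228, chr5:147562196-147725988, minus strand) was at 375, 388 and 445 CPM in control and 471, 489 and 473 CPM in STZ libraries. The STZ libraries were all higher, but control library 3 came close to them. The log2 fold change was 0.25 ± 0.10 (95% interval 0.04 to 0.45), with an unadjusted p of 0.0219 and an adjusted p of 0.13 in edgeR. Without control library 3 it was 0.33 with an adjusted p of 0.0333, so this library decided the call. The files list 1 transcript for Flt1, and soluble and full-length forms cannot be separated.

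The rise of Kdr and Flt4 was seen beside a rise of endothelial markers, of which 7 of 12 were called higher and 0 lower, with a median log2 fold change of 0.43. These markers did not move evenly: Plat, which encodes tissue plasminogen activator, had a log2 fold change of 1.66 and Ehd3, an endocytic protein of glomerular endothelium, one of 0.80, against -0.01 for Tie1, 0.02 for Tek, -0.42 for Cldn5 and -0.46 for Sox17, none of which was called. Plat alone went from 2630.5 to 8303 CPM, within a summed level of 15564 CPM in control and 25849 CPM in STZ libraries. Arterial markers (8 tested) had 2 called higher and 3 lower, and peritubular and venous markers (5 tested) had 1 and 2. Tubule markers summed to 283 ± 154 CPM in control and 129 ± 86.1 CPM in STZ libraries, and leukocyte markers to 99.3 ± 9.23 and 77.0 ± 6.48 CPM. Set against the mean log2 CPM of the 12 endothelial markers, Kdr differed by 0.22 with no overlap and Flt4 by 0.17 with overlap. On the same scale Flt1 differed by -0.14 with overlap and Nrp1 by -0.18 with no overlap. Nrp2 differed by -0.44, Vegfb by -0.42 and Vegfa by -0.57 on it, each with no overlap. For Flt1 and Nrp1 the sign of the difference thus depends on whether levels are set against the library or against these markers. The mean of these markers rose by 0.39 with Plat included, and a mean without Plat was not tested. Whether the share of endothelial cells moved these values was not tested further.

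Nrp1 (NM_008737, chr8:128359073-128505475, plus strand), the co-receptor of KDR for VEGF-A and a semaphorin receptor, was the most abundant member. It was at 2680.6, 2812 and 2393 CPM in control and 3170.3, 3042 and 2909.8 CPM in STZ libraries, with no overlap. The log2 fold change was 0.21 ± 0.10 (95% interval -0.01 to 0.43), with an adjusted p of 0.226 in edgeR. Nrp2 (NM_001077405, chr1:62703317-62818692, plus strand), which pairs with FLT4 for VEGF-C, was at 48.8, 50.0 and 46.6 CPM in control and 47.6, 45.6 and 46.6 CPM in STZ libraries. Its libraries overlapped, and its log2 fold change of -0.06 ± 0.10 had a 95% interval of -0.27 to 0.15 (adjusted p 0.768 in edgeR). That interval lies below the Kdr and Flt4 estimates.

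**Figure D3:**
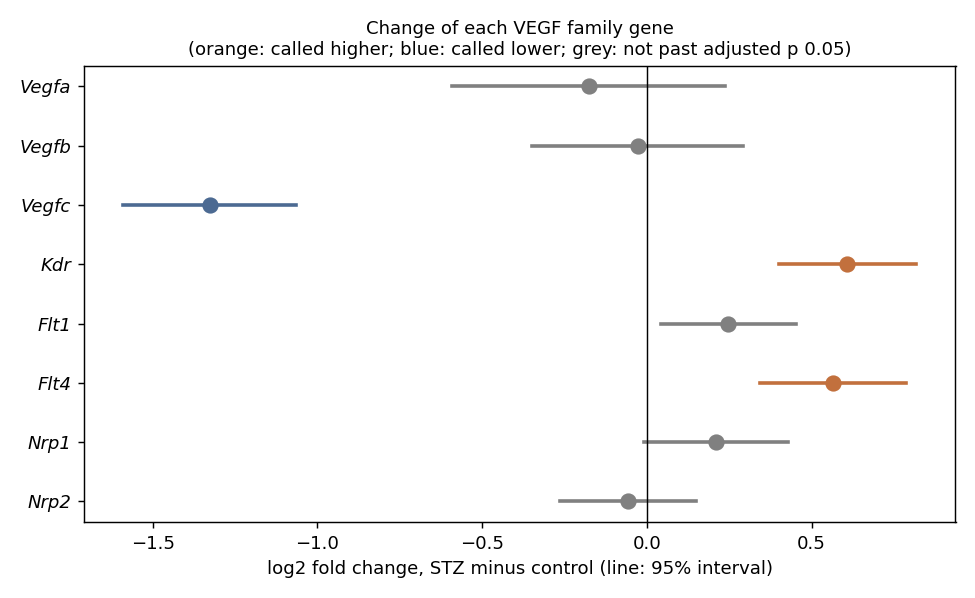
Fitted log2 fold change, STZ minus control (x axis), of the 8 measured members with 95% intervals from edgeR over 3 libraries a group. Kdr at 0.61 and Flt4 at 0.56 lie to the right of 0 and Vegfc at -1.33 to the left, and these are the 3 genes past the adjusted threshold.

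Compared per kilobase of listed transcript, levels in control libraries ran from Nrp1 at 444 ± 36.2 CPM per kilobase to Kdr at 222 ± 7.87 and Flt1 at 64.2 ± 5.92. Vegfa at 43.2 ± 7.85 and Flt4 at 39.7 ± 2.64 CPM per kilobase followed, and their libraries overlapped, so their order is not settled. Vegfc came next at 23.9 ± 0.851, then Vegfb at 12.3 ± 0.878 and Nrp2 at 7.26 ± 0.254 CPM per kilobase. In STZ libraries the order was Nrp1 (513.6 ± 22.0), Kdr (338 ± 22.2), Flt1 (76.1 ± 1.53), Flt4 (58.8 ± 6.56), Vegfa (38.2 ± 8.54), Vegfb (12.1 ± 0.949), Vegfc (9.48 ± 1.01) and Nrp2 (6.98 ± 0.150), and no neighbours overlapped. Vegfc and Vegfb thus exchanged places. Per kilobase, the 3 receptor kinases summed to 326 ± 6.11 in control and 473 ± 29.6 in STZ libraries. Kdr made up 68.1% ± 1.57 of that sum in control and 71.5% ± 0.589 in STZ libraries. The ligands Vegfa, Vegfb and Vegfc summed to 79.4 ± 9.25 and 59.8 ± 9.03 CPM per kilobase, and the Vegfc share of that sum was 30.3% ± 2.65 in control and 16.1% ± 2.73 in STZ libraries.

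**Figure D4:**
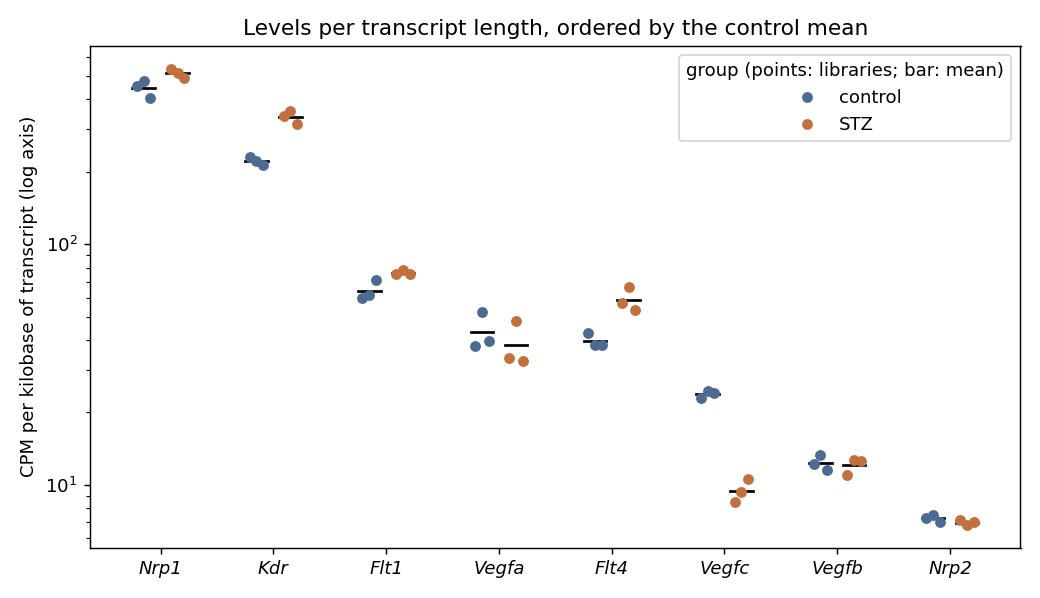
Level of each member in CPM per kilobase of listed transcript (log y axis), ordered by the control mean, with a point per library (blue control, orange STZ) and a bar at the mean. Nrp1 and Kdr stand highest in both groups, and Vegfc drops from 23.9 in control to 9.48 in STZ libraries, below Vegfb at 12.1.

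Ratios within a library do not depend on how libraries are scaled, and 5 were compared with exact two-sided permutation tests, whose own smallest p with 3 against 3 libraries is 0.1. The log2 ratio of Kdr to Flt1 counts was 1.59 ± 0.18 in control and 1.95 ± 0.08 in STZ libraries (difference 0.36, exact p 0.1, adjusted 0.125). That of Vegfa to Vegfc was 1.75 ± 0.22 in control and 2.90 ± 0.36 in STZ libraries (difference 1.15, exact p 0.1, adjusted 0.125). That of Vegfa to Kdr was -3.00 ± 0.27 in control and -3.79 ± 0.23 in STZ libraries (difference -0.79, exact p 0.1, adjusted 0.125). That of Nrp1 to Nrp2 differed by 0.27 (exact p 0.1, adjusted 0.125), and that of Kdr to Flt4 by 0.05 (exact p 0.4, adjusted 0.4). In 4 of the 5 ratios the libraries did not overlap between the groups, which restates their exact p of 0.1. The ratios share Kdr, Vegfa and Vegfc with the results above and with each other, so they are not separate results. No such share was computed over ratios of other genes.

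Other genes of the pathway were taken from 6 lists by role, and each list's calls are given beside the 9.78% called among all genes. Among signal transducers below the receptors, 44 were tested, 4 were higher and 4 lower (18.2%), and their median log2 fold change was -0.00. Prkca, a protein kinase C downstream of phospholipase C gamma, fell from 103 ± 2.16 to 64.7 ± 6.39 CPM (log2 fold change -0.67 ± 0.10, edgeR adjusted p 0.000604). Pik3r1, a regulatory subunit of PI3 kinase, had a log2 fold change of -0.50 ± 0.10 (adjusted p 0.00517 in edgeR). Hspb1, the small heat shock protein of the p38 arm, rose by 0.79 ± 0.17 on the log2 scale (edgeR adjusted p 0.0171, or 0.0753 without control library 2). Further called genes, chosen after their values were seen, were Pxn and Rac1 (higher) and Prkcb and Prkd2 (lower). Their adjusted p lay near the threshold. Prkd2 was also lost with no filter (edgeR adjusted p 0.0506), a filter at 1 CPM (0.0531), DESeq2 (0.0627), limma-voom (0.0559), the fit without robust (0.0519), rounding down (0.0527) and thinning (0.113). Pxn and Rac1 were lost with upper-quartile scaling (0.0509 and 0.0528), Rac1 with thinning (0.061) and Prkcb with thinning (0.176). Pxn was lost without any 1 library except control library 3 (edgeR adjusted p 0.082 to 0.124), and Rac1 and Prkd2 without any 1 except control library 2 (0.0568 to 0.204 and 0.0919 to 0.19). Prkcb was lost without control library 2 or 3 or STZ library 1 or 3 (0.0771 to 0.167). With the replicate block Pxn, Rac1 and Prkd2 were lost as well (edgeR adjusted p 0.103, 0.106 and 0.104).

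Among 25 modulators and trafficking factors of the receptors, 3 were higher and 2 lower (20.0%), with a median log2 fold change of -0.04. Itgb3, the integrin beta 3 chain that partners KDR, rose from 35.6 ± 11.4 to 74.8 ± 2.66 CPM (log2 fold change 1.10 ± 0.18, edgeR adjusted p 0.0048). Cdh5, the VE-cadherin that restrains KDR at junctions, rose by 0.47 ± 0.10 on the log2 scale (edgeR adjusted p 0.00639), and it is also one of the endothelial markers. Ptprj, a receptor phosphatase chosen after its values were seen, rose by 0.45 (edgeR adjusted p 0.039), a call lost without control library 1 (0.161), control library 3 (0.0548), STZ library 1 (0.15) or STZ library 3 (0.161), and with limma-voom (0.0573), the fit without robust (0.0517) or thinning (0.0656). Cblb, a ubiquitin ligase, and Ptpn2, a phosphatase, fell by 0.40 and 0.45 on the log2 scale (edgeR adjusted p 0.0258 and 0.0328). The Cblb call was lost without control library 1 (0.0982), STZ library 1 (0.101) or STZ library 2 (0.0728) and with thinning (0.242), and the Ptpn2 call without any 1 library except control library 3 (0.0616 to 0.126). With the replicate block the Ptprj and Ptpn2 calls were lost too (edgeR adjusted p 0.0665 and 0.0565). Ptprb, the endothelial phosphatase VE-PTP, had a log2 fold change of 0.02 (edgeR adjusted p 0.925).

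Of the 10 tested plexins and semaphorins that work with neuropilins, 2 were higher and 2 lower (40.0%), with a median log2 fold change of -0.24. Plxna2 rose from 207 ± 14.9 to 351 ± 0.559 CPM (log2 fold change 0.76 ± 0.09, edgeR adjusted p 0.000155), and Plxna4 from 37.9 ± 2.74 to 54.5 ± 0.842 CPM (0.53 ± 0.10, edgeR adjusted p 0.00481). Plxna3 fell by 0.62 ± 0.14 and the ligand Sema3b by 0.66 ± 0.14 on the log2 scale (edgeR adjusted p 0.0124 and 0.0115). Both of these calls were lost without control library 1 (0.0839 and 0.0771). The plexins A therefore moved in both directions beside neuropilins that did not pass the test.

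The 15 genes that cleave or bind VEGF ligands had 1 higher and 1 lower (13.3%), with a median log2 fold change of 0.04. Pcsk5, a proprotein convertase able to cleave VEGF-C precursor, fell from 170.2 ± 14.5 to 106 ± 6.09 CPM (log2 fold change -0.69 ± 0.09, edgeR adjusted p 0.000429). Adamts1, a protease that binds VEGF-A, rose from 249 ± 23.0 to 399.5 ± 21.8 CPM (0.68 ± 0.10, edgeR adjusted p 0.000661). Furin, another convertase, had a log2 fold change of 0.26 (edgeR adjusted p 0.196). Ccbe1 and Adamts3, which process VEGF-C together, averaged 4.78 and 6.50 CPM in control libraries and were not called.

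Of 24 tested endothelial genes known to be induced by VEGF, 4 were higher and 2 lower (25.0%), and the median log2 fold change was -0.28. Icam1 and Sele, the leukocyte adhesion molecules ICAM-1 and E-selectin, rose by 0.84 ± 0.10 and 1.46 ± 0.21 on the log2 scale (edgeR adjusted p 0.000138 and 0.000701), Sele from a low 5.08 ± 1.34 CPM. Nr4a1, an immediate early nuclear receptor, rose by 0.56 ± 0.11 (edgeR adjusted p 0.00447), and Adamts1, already named, is the other. The lower genes, chosen after their values were seen, were F3, tissue factor (-0.99), and Hbegf, a growth factor (-0.41). The F3 call was lost without any 1 library except control library 3 and STZ library 1 (edgeR adjusted p 0.106 to 0.142), and the Hbegf call without control library 1 (0.115), STZ library 1 (0.0616) or STZ library 3 (0.125). F3 was also lost with limma-voom (0.0524), the fit without robust (0.0538), the replicate block (0.0629) and thinning (0.299), and Hbegf with thinning (0.0797). The F3 libraries overlapped between the groups, with control library 3 at 4.86 CPM and STZ library 1 at 4.93 CPM. Dll4, Esm1, Apln and Angpt2, which are tip cell genes, had log2 fold changes of 0.13, -0.37, -0.42 and -0.49 and were not called. Genes of this list thus moved in both directions, with a negative median beside a higher Kdr.

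The list of hypoxia genes holds regulators such as Hif1a, Epas1, Arnt and Vhl beside genes regulated like Vegfa. It had 3 higher and 1 lower of 14 (28.6%), with a median log2 fold change of 0.18. Adm, the vasodilator adrenomedullin, rose from 33.3 ± 2.47 to 67.3 ± 9.56 CPM (log2 fold change 1.01 ± 0.12, edgeR adjusted p 0.000186). Egln3, an oxygen sensor, fell from 42.5 ± 5.03 to 23.3 ± 2.82 CPM (-0.86 ± 0.13, edgeR adjusted p 0.00114). Bnip3, a mitophagy receptor, rose by 0.65 ± 0.14 (edgeR adjusted p 0.00919), a call lost without control library 1 (0.0625) or STZ library 1 (0.0516). Epas1, which encodes HIF-2 alpha, rose by 0.33 ± 0.10 (edgeR adjusted p 0.0448), a call lost without any 1 library except control library 3 (0.0742 to 0.164), with upper-quartile scaling (0.0534), with the fit without robust (0.0535) and with the replicate block (0.128).

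**Figure D5:**
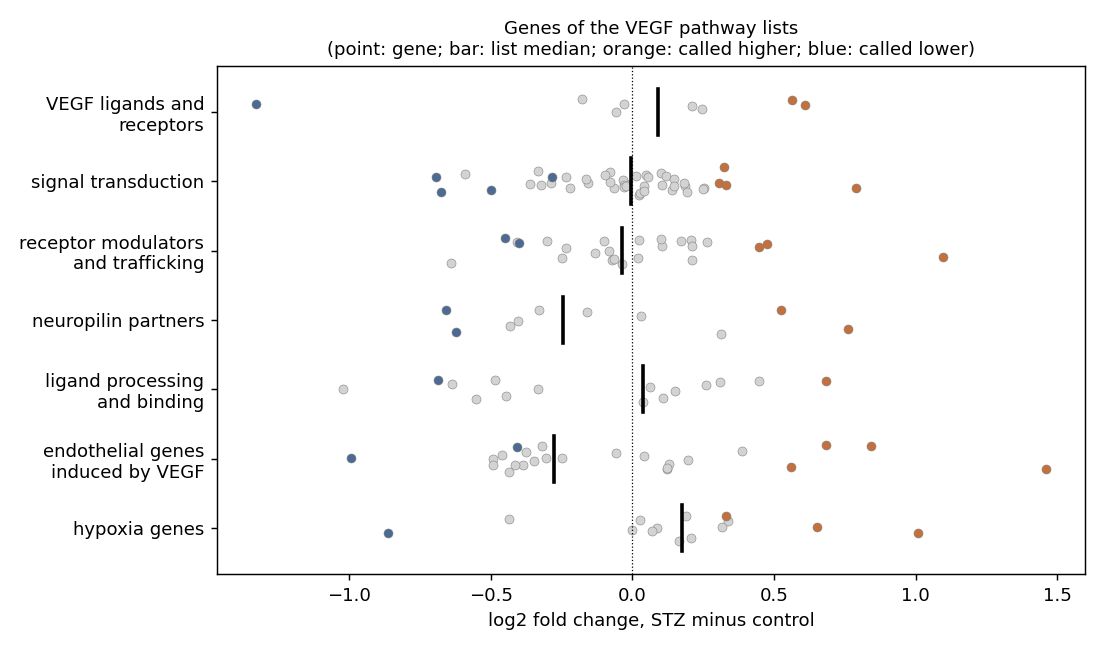
Log2 fold change, STZ minus control (x axis), of each tested gene in the VEGF family and the 6 pathway lists, with a bar at each list's median, orange for called higher and blue for called lower. Each list holds called genes on both sides of 0, and the medians run from -0.28 for genes induced by VEGF to 0.18 for hypoxia genes.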

How the data were processed

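One table per library was analysed. Per gene, the deposited files give a RefSeq accession, position, transcript length and 1 value, taken as an expected count. The submitters' processing notes name mm10 as the genome build and list limma. Aligner, counter, strandedness and how transcripts were summarised were not given in the sources used here. Overlapping and antisense genes can therefore share reads. The 34 blank cells were read as 0, and listed starts were raised by 1 to give 1-based coordinates. Value columns left unused numbered 0.

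Values were rounded to whole counts. The test was edgeR 4.0.16 under R 4.3.3 (TMM scaling, filterByExpr, robust quasi-likelihood F test, two-sided, Benjamini-Hochberg over 12786 genes, threshold 0.05). CPM are edgeR's scaled counts and use TMM-scaled library sizes, and log2 CPM a prior count of 2. Errors are SD over 3 libraries or SE of the fit. The biological coefficient of variation was 0.117. The labels do not say that the pools are separate cohorts, so p-values measure the spread between pools. Precision was set by the spread between pools together with the total counts. Alternatives included DESeq2 1.42.0, limma-voom (limma 3.58.1), other scalings and filters, thinning to the smallest library, a replicate block and leaving out each library. The procedure was tested on simulated data.

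The members, gene lists and tests were chosen with earlier results of these data known. Named genes are the members, up to 4 called genes with the smallest p per pathway list, the 2 most abundant genes per marker list, and the 3 genes nearest in pattern to each called member with a mean log2 CPM of at least 3. Some genes that this rule took are not reported here. Any other gene named was chosen after its values were seen.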

Additional observations from a re-analysis of the deposited data

How the results depend on the processing

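Kdr and Flt4 stayed higher and Vegfc lower, past the threshold, in all 17 refits (log2 fold change 0.56 to 0.66, 0.47 to 0.63 and -1.56 to -1.26; largest adjusted p 0.0108, 0.0148 and 0.000411). Flt1 passed only without control library 3, which gave 3 members called higher. Genes that were not called changed sign as follows. Vegfb turned to 0.029 without control library 2 and 0.035 without STZ library 1 (range with 1 library left out -0.062 to 0.035). Figf turned to 0.056 with voom sample weights, 0.10 after thinning, 0.016 without control library 3 and 0.246 without STZ library 2 (range -0.245 to 0.246). With 1 library left out, Podxl ranged from -0.066 to 0.143 and Sema3g from -0.089 to 0.149. With the replicate block the members gave 2 higher and 1 lower (Kdr 0.61, adjusted p 0.00676), 571 and 430 genes were called higher and lower, and signal transducers had 1 higher, modulators 1 lower and VEGF-induced genes 1 lower. The labels do not say that title numbers pair the pools. Correlations of same-numbered deviations (0.12, -0.13 and -0.16) lay within the range of differently numbered ones (-0.243 to 0.295). With so few libraries these correlations cannot settle a pairing. Among all genes 552 were lower, against 355 after thinning and 866 at a threshold of 0.10. Leaving out 1 library gave 426 to 695 higher and 236 to 596 lower, the lowest of both without STZ library 1, with 444 and 276 without control library 1 and 355 lower without STZ library 3. Thinning also gave 2 lower signal transducers, 1 lower modulator and 0 lower VEGF-induced genes, and upper-quartile scaling 2 higher signal transducers. VEGF-induced genes had 1 lower with limma-voom and 1 without the robust fit. Ligand-processing genes had 2 higher and 3 lower with DESeq2, 2 and 2 with sample weights, and 2 higher at 0.10, where hypoxia genes had 5 higher. Over single libraries left out, signal transducers had 1 to 3 higher and 2 to 3 lower, modulators 0 to 5 lower, neuropilin partners 0 to 3 lower, ligand-processing genes 1 to 3 lower, VEGF-induced genes 0 to 5 lower and hypoxia genes 1 to 4 higher. The 5 ratios kept their sign without any 1 library. Counts per library were lowest for Vegfb and Vegfc, at 67 to 392, and the spread between pools limits precision beside depth.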
